A study of Homo sapiens with 2 samples.

Results

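The cytoplasmic ribosomal protein genes are the 82 protein-coding genes of the GENCODE 44 annotation on chromosomes 1 to 22 and X that carry the standard RPL, RPS, RPLP or RPSA names. They were chosen by name alone, with the S6 kinases and the Y-linked copies left out. Of these genes, 60 were named as the nearest gene in 109 of the 56159 listed peaks, and 22 were named in none. FAIRE-seq (formaldehyde-assisted isolation of regulatory elements) sequences the DNA that escapes crosslinking to protein, so a peak marks open, nucleosome-poor chromatin and not a transcript level. HepG2, an established human liver cancer cell line, was infected with lentiviral particles expressing either a scrambled shRNA (control) or an shRNA against NR2E3, an orphan nuclear receptor (NR2E3 depleted). Each group had 1 library, both groups carried a lentiviral hairpin, and the depletion is a knockdown and not a deletion of the gene. The authors divided the peaks into 14368 common, 16236 control-specific and 25555 NR2E3-depleted-specific peaks. With 1 library per group no difference between the groups could be tested, and no p-value was computed.

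Ribosomal proteins coat the ribosomal RNA of the large (60S) and small (40S) subunits and are needed in nearly equal amounts in every dividing cell. Their transcripts typically begin with a cytosine followed by a run of pyrimidines, the terminal oligopyrimidine (TOP) start, through which mTOR and LARP1 control their translation. Their promoters lie in CpG-rich DNA, often lack a TATA box, and are commonly bound by ETS-family factors, YY1 and Sp1.

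All peak scores under 10 were whole multiples of 1 step within a tolerance of 0.0051, and larger scores are printed with fewer decimals. The step was 0.407 for common and for control-specific peaks but 0.507 for NR2E3-depleted-specific peaks. It was read as 1 sequenced tag, a reading that the sources used here do not state and on which every tag number and Poisson interval rests. A common peak therefore carried a score with the control step, and scores of the first 2 lists were not set against those of the NR2E3-depleted-specific list. The median peak held 16 tags in the common list, 14 in the control-specific list and 12 in the NR2E3-depleted-specific list. Chromosomes 2, 6, 14, 16, 17 and 20 held 70.4% of all peaks but 27.6% of the protein-coding genes, and are called the peak-dense chromosomes here. The liver identity of the cells was checked on 13 hepatocyte markers, of which 9 had a promoter peak, against 28.9% of all protein-coding genes. The 9 included APOA1, APOB, SERPINA1, HNF4A and FOXA2, whereas ALB, TTR, AFP and FGB had none. A common peak was named for 8 of the 13 markers. TF had a control-specific peak alone, and no marker had an NR2E3-depleted-specific one. NR2E3 itself was named for 1 peak, which lay outside its promoter, and FAIRE gives no measure of its depletion.

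The promoters below show what the group shares and how its members differ. They comprise 3 genes with a common promoter peak (RPL27, RPL28 and RPL13A), 2 with a control-specific one (RPL11 and RPS3), 3 with an NR2E3-depleted-specific one (RPS15, RPL21 and RPS16) and 2 with none (RPL10 and RPL12). They were chosen after their values were seen. Each line runs 5′ to 3′ on the gene's strand over 120 bases of RefSeq on GRCh38.p14, 100 before the annotated start and 20 from it on. Capitals mark the pyrimidine tract at the start and the letters of the motifs defined with the promoter features.
RPL27 (chr17:42998319-42998438, plus strand): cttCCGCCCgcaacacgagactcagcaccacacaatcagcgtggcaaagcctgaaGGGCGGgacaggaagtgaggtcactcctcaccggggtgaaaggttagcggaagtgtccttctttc
RPL28 (chr19:55385832-55385951, plus strand): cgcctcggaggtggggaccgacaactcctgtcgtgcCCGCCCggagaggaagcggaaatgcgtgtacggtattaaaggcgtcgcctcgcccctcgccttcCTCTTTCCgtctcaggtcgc
RPL13A (chr19:49487508-49487627, plus strand): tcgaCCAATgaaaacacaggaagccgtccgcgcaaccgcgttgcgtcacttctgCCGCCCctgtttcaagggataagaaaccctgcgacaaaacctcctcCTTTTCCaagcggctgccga
RPL11 (chr1:23691706-23691825, plus strand): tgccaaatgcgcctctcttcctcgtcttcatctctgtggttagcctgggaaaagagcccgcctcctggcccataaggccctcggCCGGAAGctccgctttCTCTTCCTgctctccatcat
RPS3 (chr11:75399418-75399537, plus strand): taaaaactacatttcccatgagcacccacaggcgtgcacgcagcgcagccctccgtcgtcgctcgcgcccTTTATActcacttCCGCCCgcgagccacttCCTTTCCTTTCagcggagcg
RPS15 (chr19:1438296-1438415, plus strand): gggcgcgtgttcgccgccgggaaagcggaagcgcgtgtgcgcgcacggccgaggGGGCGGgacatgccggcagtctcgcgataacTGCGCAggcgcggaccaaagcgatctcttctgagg
RPL21 (chr13:27251458-27251577, plus strand): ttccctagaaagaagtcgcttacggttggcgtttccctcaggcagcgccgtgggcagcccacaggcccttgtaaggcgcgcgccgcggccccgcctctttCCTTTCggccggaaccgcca
RPS16 (chr19:39435930-39436049, minus strand): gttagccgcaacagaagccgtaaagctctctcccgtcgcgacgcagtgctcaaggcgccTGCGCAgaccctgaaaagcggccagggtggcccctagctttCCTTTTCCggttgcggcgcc
RPL10 (chrX:154398277-154398396, plus strand): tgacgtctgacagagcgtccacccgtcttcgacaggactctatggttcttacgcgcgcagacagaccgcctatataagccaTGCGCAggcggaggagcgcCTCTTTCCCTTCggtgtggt
RPL12 (chr9:127451387-127451506, minus strand): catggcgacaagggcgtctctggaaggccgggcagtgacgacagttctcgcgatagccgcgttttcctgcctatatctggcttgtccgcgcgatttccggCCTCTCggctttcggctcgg

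The 8 promoters with a tract at the annotated first base carried 6 to 12 pyrimidines there, with and without a FAIRE peak alike. RPL27 and RPS15 had none at that exact base, although pyrimidine runs lie a few bases downstream in both.

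Ribosomal protein promoters were open more often than those of protein-coding genes at large, and mostly in both libraries. A promoter peak is a peak of the promoter class in the authors' annotation, whose centres lay from 999 bp upstream to 820 bp downstream of the transcription start site (TSS) given for them. It was named for 57 of the 82 genes (69.5%, 95% Clopper-Pearson interval 58.4 to 79.2%), against 28.9% of all 19962 protein-coding genes. Intervals here and for tags cover counting error only, since they hold neither the variation between cultures nor the choice of genes. The common list held 37 of the 82 genes (45.1%, 34.1 to 56.5%), against 15.0% of all genes. The control-specific list held 6 (7.32%, 2.73 to 15.2%), against 3.75%, and the NR2E3-depleted-specific list held 15 (18.3%, 10.6 to 28.4%), against 12.0%. The interval of the common list lay above the level of all genes, and those of both specific lists included it. On the chromosomes that were not peak-dense, the NR2E3-depleted-specific share was 23.3% (13.4 to 36.0%, against 11.6% of all genes there) and the control-specific share 8.33% (2.76133 to 18.4%, against 2.75895%), so both intervals began above the level of all genes, the latter barely.

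**Figure D1:**
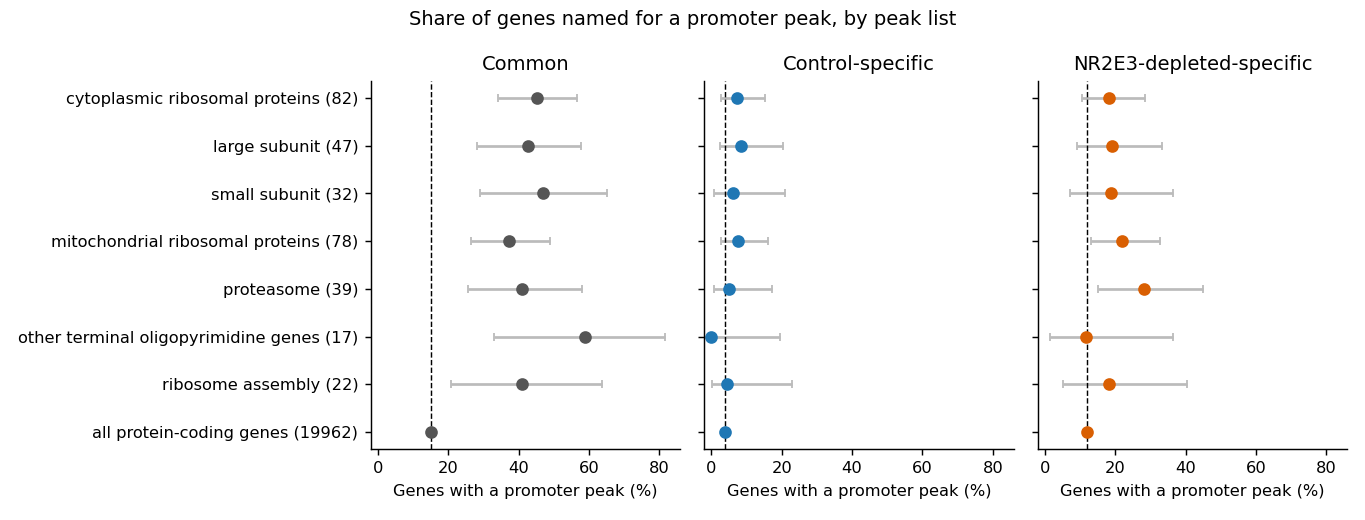
Percentage of genes named for a promoter peak in each list, with the number of genes in parentheses, 95% Clopper-Pearson intervals as bars and the level of all protein-coding genes as a dashed line. The ribosomal protein genes sat at 45.1% in the common list against 15.0% for all genes, and at 7.32% against 3.75% and 18.3% against 12.0% in the control-specific and NR2E3-depleted-specific lists, where the intervals reached the dashed line.

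Of the genes with any promoter peak, 64.9% (51.1 to 77.1%) of the ribosomal protein genes had a common one, against 52.0% of all such genes. The interval lay above the level of other genes on the peak-dense chromosomes, where 16 of 17 were common (94.1%, 71.3 to 99.9%) against 64.2%. On the other chromosomes 21 of 40 were common (52.5%, 36.1 to 68.5%), and the interval included the 44.4% of all genes. In all, 42 ribosomal protein genes had a promoter peak with control cells and 52 with NR2E3-depleted cells, a ratio of 1.24. The ratio over all protein-coding genes was 1.44, and these ratios have no interval. Mitochondrial ribosomal protein genes had 59.2% common (81.0% on the peak-dense chromosomes) and a ratio of 1.32. Proteasome genes had 57.1% common (66.7% on the peak-dense chromosomes) and a ratio of 1.59.

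No difference between the subunits was detectable in these shares. Of the 47 large subunit genes, 32 had a promoter peak (68.1%, 52.9 to 80.9%), and of the 32 small subunit genes 23 did (71.9%, 53.3 to 86.3%). The common list held 20 large subunit genes (42.6%) and 15 small subunit genes (46.9%), and the NR2E3-depleted-specific list held 9 and 6. The stalk proteins, which recruit elongation factors to the 60S subunit, were split: RPLP0 and RPLP1 had a common peak and RPLP2 had none. Of the paralogs RPL3L, RPL10L, RPL39L, RPL7L1 and RPS27L, RPL7L1 alone had a promoter peak.

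Among the 37 common promoter peaks, the tag number ran from 12 to 30. RPL27, a 60S protein mutated in some Diamond-Blackfan anaemia families, had the highest, with 30 tags (exact Poisson 95% interval 20.2 to 42.8) and a score of 12.2, in a peak at chr17:42997983-42998283 centred 140 bp upstream of its TSS. RPL23 followed with a score of 10.6 and 26 tags, and RPL28 and RPS15A both had a score of 10.2 and 25 tags. RPL13A, a 60S protein that also takes part in interferon-induced silencing of translation, and RPS24 both had a score of 8.95 and 22 tags. The lowest was RPS25, needed for initiation at some internal entry sites, with a score of 4.88 and 12 tags (6.20 to 21.0). Next lowest, at a score of 5.69 and 14 tags, were genes of both subunits, among them RPL10A, RPL30, RPL37A, RPS13 and RPS21. The intervals of the highest and the lowest peak overlapped slightly, so the order of the genes between them was not resolved at this depth.

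**Figure D2:**
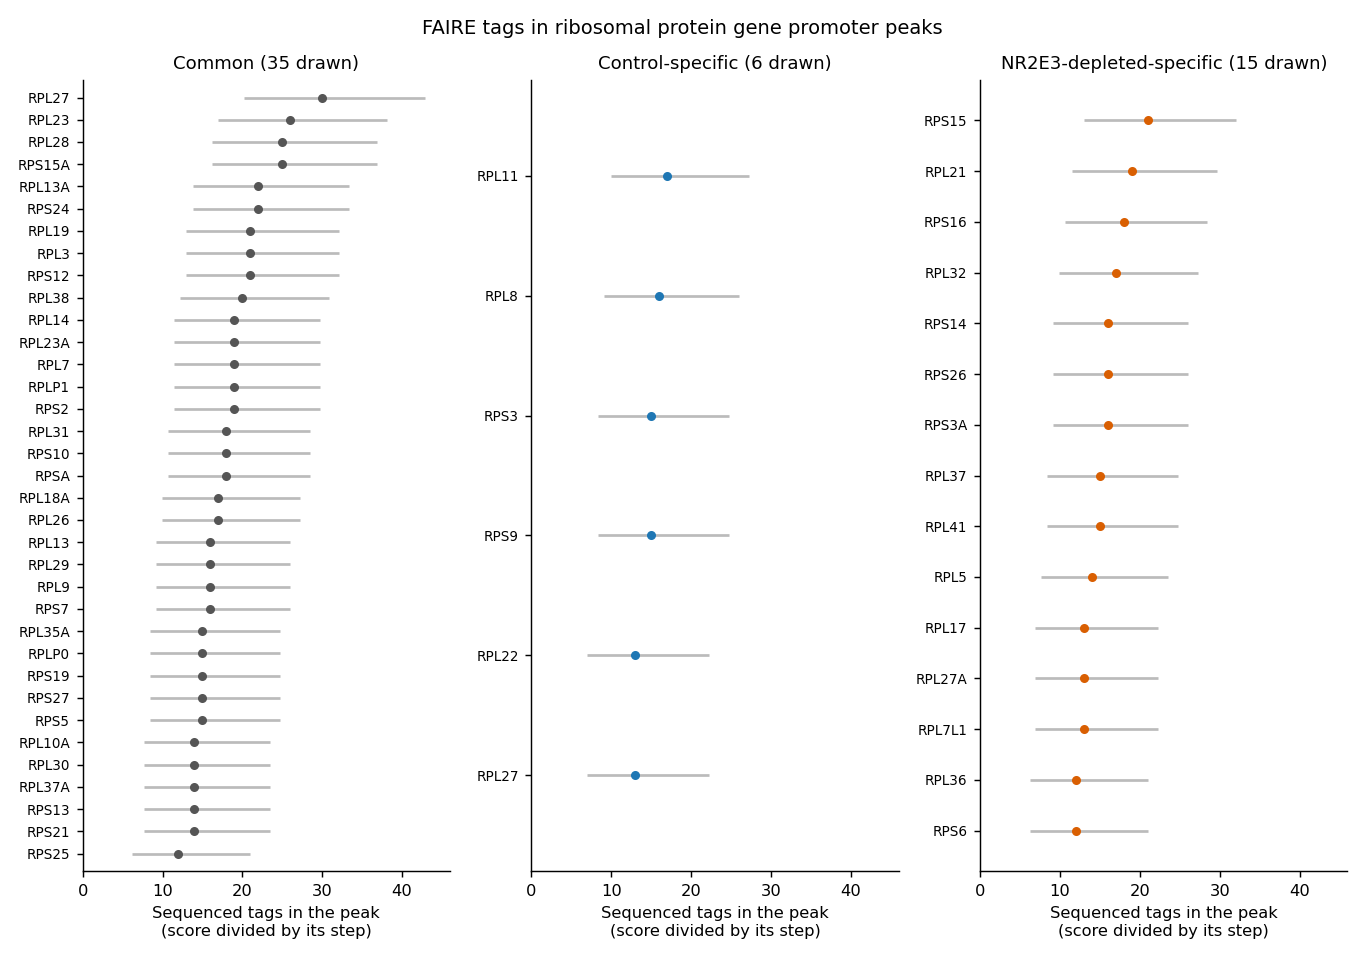
Sequenced tags in ribosomal protein gene promoter peaks by list, with exact Poisson 95% intervals as bars and each panel's title giving the number drawn. Every peak held between 12 and 30 tags, and the intervals of neighbouring genes overlapped throughout.

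The common ribosomal protein peaks scored like other common promoter peaks. Their median score was 6.91 (95% interval of the median 6.10 to 7.73, n = 37), and that of the 3090 common promoter peaks of other protein-coding genes was also 6.91. A score of at least 10 was reached by 4 of 37 (10.8%), against 10.9% of the other peaks. The highest score among the other genes was 32.5, well above the 12.2 of RPL27. Within the group the median was 7.53 over 20 large subunit peaks and 6.10 over 15 small subunit peaks.

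The 15 NR2E3-depleted-specific promoter peaks belonged to 9 genes of the large and 6 of the small subunit. RPS15, a 40S protein needed for export of the small subunit precursor, had the highest score, 10.6 with 21 tags, at chr19:1438139-1438439. RPL21 had a score of 9.63 with 19 tags at chr13:27251214-27251514, and RPS16 a score of 9.13 with 18 tags at chr19:39435993-39436293. These 3 peaks were centred 75, 191 and 194 bp upstream of the TSS, within or just above the promoter stretches printed for them.

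RPL32 had a score of 8.62 and 17 tags, and 3 genes of the small subunit had 8.11 and 16 tags. These were RPS14, the gene behind the anaemia of the 5q deletion syndrome, RPS26, which lies in the mRNA exit channel, and RPS3A. RPL37 and RPL41, the latter the smallest ribosomal protein, both had a score of 7.60 and 15 tags. RPL5, which carries 5S rRNA into the ribosome and binds MDM2 together with RPL11, had a score of 7.10 and 14 tags at chr1:92831704-92832004. RPL17, RPL27A and RPL7L1, the latter a paralog of RPL7, had a score of 6.59 and 13 tags each. RPL36 and RPS6, the latter the substrate of S6 kinase, were the lowest with 6.08 and 12 tags. All 15 peaks lay at 12 to 21 tags, and the median score was 7.60 (6.59 to 8.62), against 7.10 for the 2480 NR2E3-depleted-specific promoter peaks of other genes.

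None of these 15 peaks had a control-library peak within 1000 bp, and 4 had one within 10000 bp. The distance to the nearest control-library peak had a median of 37847 bp and ran from 1700 bp for RPL41 to 177514 bp for RPL32. No control peak was thus listed at the same start, which was largely built in, since the peaks come from a list set apart as specific. These distances were not computed for the specific promoter peaks of other genes, so they are not read as particular to the group. Tag numbers of the other library at these sites were not analysed here, so a control signal below the calling threshold could not be told apart from no signal.

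The control-specific list held 6 promoter peaks. RPL11, the partner of RPL5 in 5S rRNA delivery and MDM2 binding, had a score of 6.91 and 17 tags at chr1:23691577-23691877, 52 bp upstream of its TSS, and the nearest peak of the NR2E3-depleted library was 35800 bp away. RPL8 had a score of 6.51 and 16 tags. RPS3, which lines the mRNA entry channel, and RPS9 both had 6.10 and 15 tags. RPL22 had a score of 5.29 and 13 tags. The sixth peak, of RPL27, was the second promoter peak of that gene, with a score of 5.29 and 13 tags at 750 bp upstream and 610 bp from its common peak. The remaining 5 genes therefore had an open promoter called with control cells alone (6.10%, 2.01 to 13.7%, against 2.72% of all genes). With NR2E3-depleted cells alone there were 15 (18.3%, 10.6155 to 28.4%, against 10.7154% of all genes). Both intervals included the level of all genes, the latter barely.

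The split of the specific peaks was close to that of other genes. Of the 21 specific promoter peaks of ribosomal protein genes, 15 were NR2E3-depleted-specific (71.4%, 47.8 to 88.7%), against 2480 of 3244 for other protein-coding genes (76.4%, 74.9 to 77.9%). On the peak-dense chromosomes the group had 1 specific peak of each kind, and on the other chromosomes 14 of 19 were NR2E3-depleted-specific (73.7%, 48.8 to 90.9%), against 81.2% of other genes. RPL5 and RPL11 stood on opposite sides, RPL5 among the NR2E3-depleted-specific peaks and RPL11 among the control-specific ones. At 14 and 17 tags (7.65 to 23.5 and 9.90 to 27.2) each rested on few reads.

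**Figure D3:**
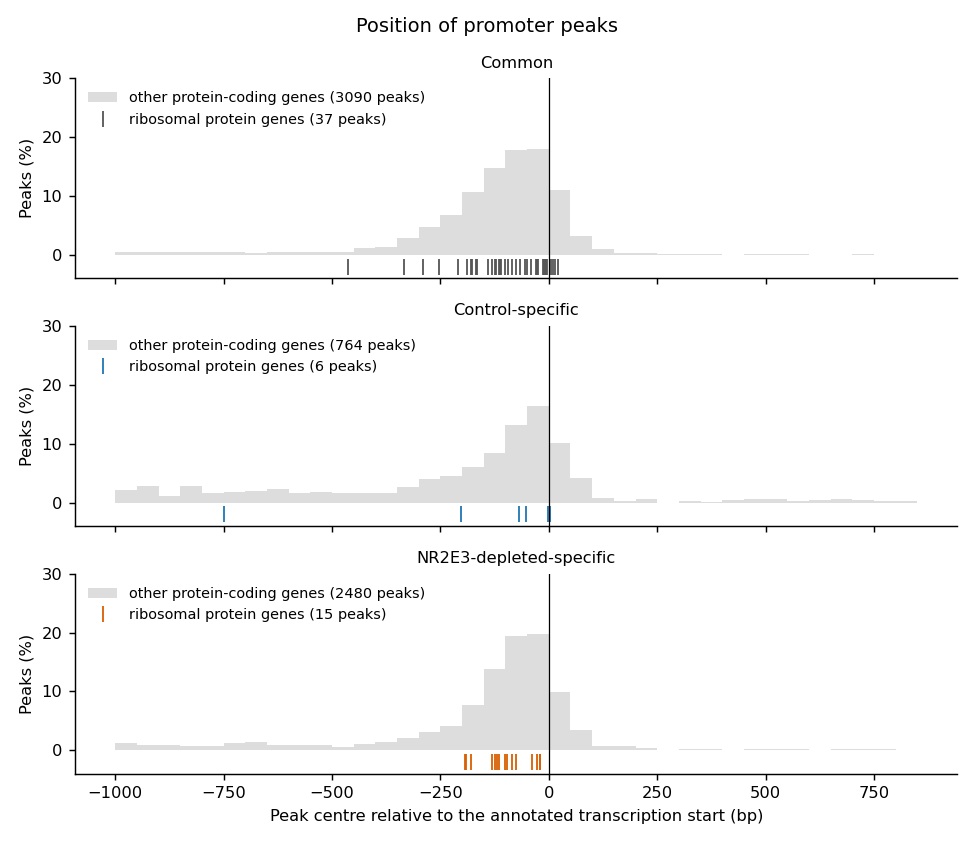
Position of promoter peak centres relative to the annotated start in bp, with other protein-coding genes as a grey histogram in percent and each ribosomal protein peak as a tick. All 15 NR2E3-depleted-specific ticks fall between 194 and 20 bp upstream of the start.

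The peaks sat just upstream of the start. The median centre of the common peaks was 94 bp upstream, against 92 bp upstream for other genes, and 33 of 37 were upstream (89.2%, against 83.1%). The peak of RPS19 was farther out, at 335 bp upstream, and that of RPS7 lay 22 bp past the start. The NR2E3-depleted-specific peaks had a median centre 102 bp upstream, and all 15 lay within 200 bp, against 75.3% of the 2480 peaks of other genes. The GC content of the common peaks had a median of 59.1%, against 62.1% for other genes, and that of the NR2E3-depleted-specific peaks 58.8%, against 64.5%.

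Naming each peak after its single nearest gene hid part of the group. Of the 25 genes with no promoter peak to their name, 10 had a peak centred within 1000 bp of their own annotated TSS that was listed under a neighbouring gene. The highest was a common peak of score 11.4 and 28 tags listed under CLHC1 and centred 358 bp upstream of RPS27A, which encodes a 40S protein fused to ubiquitin. It ended short of the RPS27A start and lay nearer to that of CLHC1. RPS18 had a common peak of score 8.13 listed under VPS52, with a control-specific peak of score 6.51 farther upstream. Common peaks also lay upstream of RPL34 (6.91, listed under RPL34-AS1), RPL4 (6.91, ZWILCH), RPL18 (6.51, SPHK2) and RPL15 (5.69, NKIRAS1). NR2E3-depleted-specific peaks lay upstream of RPS29 (8.11, listed under RN7SL1), RPS20 (7.60, CERNA3) and RPL35 (6.59, ARPC5L), and a control-specific peak at RPS23 (6.91, ATP6AP1L). In 6 of the 10 genes the neighbour was matched to a protein-coding gene, which lay on the opposite strand with a start 142 to 471 bp away, so that the peak lay near both starts. Assigned by position instead of by name, 67 of the 82 genes had a peak (81.7%, 71.6 to 89.4%), against 35.3% of all protein-coding genes. By list these were 43 common (52.4%, against 18.8%), 10 control-specific (12.2%, 6.01 to 21.3%, against 4.97%) and 19 NR2E3-depleted-specific (23.2%, 14.6 to 33.8%, against 15.0%). Under this assignment the interval of the control-specific list lay above the level of all genes as well. Of its genes, RPL27, RPL35A, RPL38 and RPS18 also had a common peak. Genes with control-specific peaks alone were 6 of 82 (7.32%, 2.73 to 15.2%, against 3.19%), and this interval included the level of all genes. Genes with NR2E3-depleted-specific peaks alone were 18 of 82 (21.95%, 13.56 to 32.46%, against 12.7%), and this interval lay above that of all genes. By position this share was also 25.6% (16.4 to 36.8%) for mitochondrial ribosomal protein genes and 23.1% (11.1 to 39.3%) for proteasome genes. It was 27.3% (10.7 to 50.2%) for ribosome assembly genes and 11.8% for other translation genes with TOP transcripts. The share was thus not particular to the ribosomal protein genes.

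The 15 genes with no peak by either assignment were uneven in kind. All 4 members on chromosome X, namely RPL10, RPL36A, RPL39 and RPS4X, were among them. On X, 46 of the 859 protein-coding genes (5.36%) had a promoter peak, so 0 of 4 (which allows a share of up to 60.2%) lies within the range that share allows. A further 4 were the paralogs RPL3L, RPL10L, RPL39L and RPS27L. The others included RPL6, RPL7A, RPL12, RPL24, RPLP2 and RPS28. No call at these promoters was detectable at this depth, where the weakest listed promoter peak of the group held 12 tags.

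**Figure D4:**
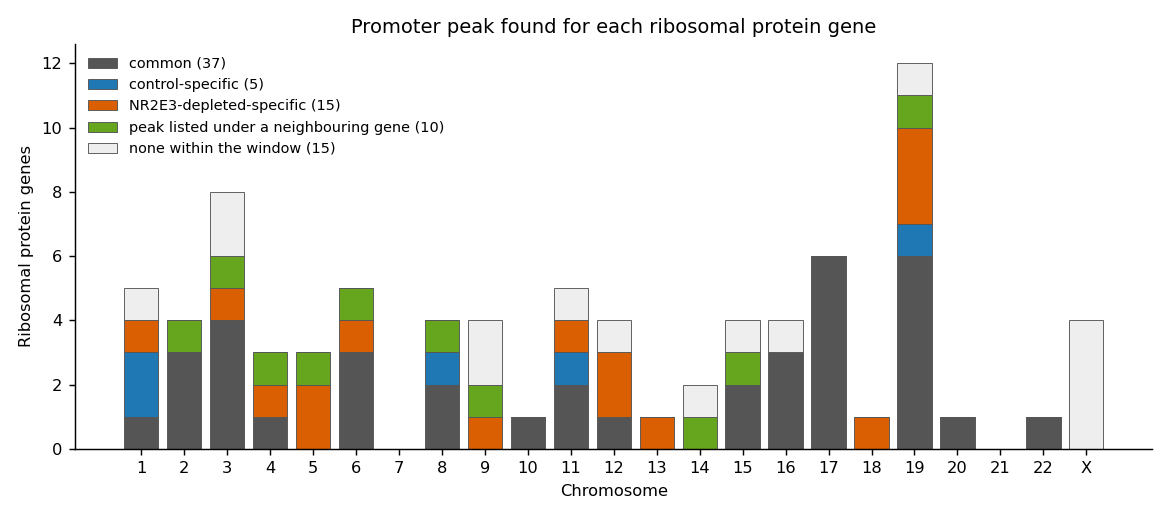
Number of ribosomal protein genes on each chromosome, coloured by the promoter peak found for them. All 6 genes on chromosome 17 had a common peak, and all 4 on chromosome X had none.

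The group was spread over 21 chromosomes, and the share with a common peak was higher on the peak-dense ones, as it was for all genes. Those chromosomes are defined by their share of these same peaks, so a higher share there was partly built in. On the 6 peak-dense chromosomes 16 of 22 genes had a common promoter peak (72.7%, 49.8 to 89.3%), against 25.9% of all genes there. On the other chromosomes it was 21 of 60 (35.0%, 23.1 to 48.4%), against 10.9%. The NR2E3-depleted-specific genes ran the other way, with RPL7L1 as 1 of 22 on the peak-dense chromosomes (4.55%, 0.115 to 22.8%) and 14 of 60 (23.3%, 13.4 to 36.0%) on the others, against 13.0% and 11.6% of all genes. Only RPL27 had promoter peaks in more than 1 list, so a higher common share left fewer genes to be specific. The contrasts of both lists were thus not independent, and the part of this chromosome pattern in the lists was not tested. Chromosome 19 held the most members, 12, of which 10 had a promoter peak: 6 common, 1 control-specific (RPS9) and 3 NR2E3-depleted-specific (RPS15, RPS16 and RPL36). Over all protein-coding genes of that chromosome 29.3% had a promoter peak, with 15.2% common, 2.57% control-specific and 12.1% NR2E3-depleted-specific.

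Ribosomal protein genes mutated in Diamond-Blackfan anaemia, a failure of red cell production, formed a list of 20. By the deposited names 14 of the 20 had a promoter peak (70%, 45.7 to 88.1%), against 69.5% of the whole group and 28.9% of all genes, and 6 had none. A common peak was named for 11 (55%, against 15.0% of all genes), a control-specific one for 2 (10%, RPL11 and RPL27, against 3.75%) and an NR2E3-depleted-specific one for 2 (10%, RPL5 and RPS26, against 12.0%). By position 19 of the 20 had a peak (95%, 75.1 to 99.9%), against 81.7% of the group and 35.3% of all genes, and RPS28 was the exception. The positional counts were 13 common (65%, against 18.8% of all genes) and 3 control-specific (15%, against 4.97%). An NR2E3-depleted-specific peak was found by position for 6 (30%, 11.9 to 54.3%), and this interval included the 15.0% of all genes.

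Promoter sequence was independent of the FAIRE values, and 65 of the 82 genes were matched to the RefSeq promoter table, which spans 250 bp upstream to 50 bp downstream. A TOP start, defined as a C at the annotated first base followed by at least 4 pyrimidines, was present in 46 of 65 (70.8%, 58.2 to 81.4%), against 4.71% of 15315 promoters. The median tract was 8 bases and the longest 19, in RPL39. By FAIRE state it was present in 21 of 27 genes with a common peak, 8 of 13 with an NR2E3-depleted-specific peak, 4 of 4 with a control-specific peak and 13 of 21 with none to their name. The tract was thus carried by most members whether or not a promoter peak was named for them. Those with none to their name include genes, such as RPL18 and RPS18, with a peak listed under a neighbour.

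Motifs were searched as exact letters on both strands. The ETS-type CCGGAAG was found in 23 of 65 promoters (35.4%, 23.9 to 48.2%), against 14.7% of all promoters. The YY1-type GCCATC was found in 20 (30.8%, 19.9 to 43.4%), against 13.3%, and the longer AAGATGGCG, whose reverse complement contains GCCATC, in 5 (7.69%), against 2.98%. The palindromic NRF1-type TGCGCA was found in 13 (20%, 11.1 to 31.8%), against 11.2%. The Sp1-type GGGCGG was found in 37 (56.9%, 44.04 to 69.2%), against 61.8%. The NFY-type CCAAT was found in 21 (32.3%, against 36.6%), the palindromic E-box CACGTG in 4 (6.15%, against 8.85%) and TATAAA in 6 (9.23%, against 9.42%). The intervals for the ETS and short YY1 letters lay above the level of all promoters. Those for the longer YY1, NRF1, Sp1, NFY, E-box and TATA letters included it.

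**Figure D5:**
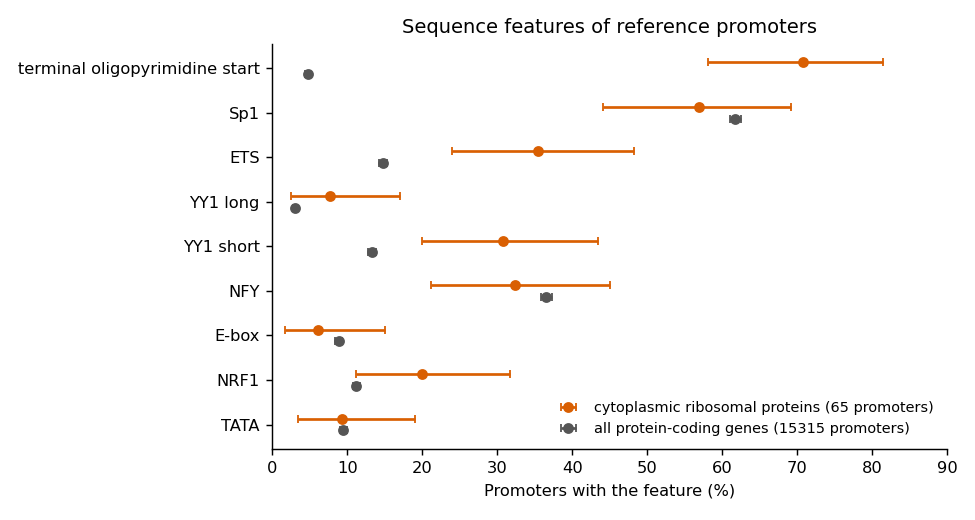
Percentage of reference promoters with each sequence feature, for 65 ribosomal protein genes and for all 15315 promoters of the table, with 95% Clopper-Pearson intervals. The TOP start separates the groups most, at 70.8% against 4.71%, and Sp1 letters are at 56.9% against 61.8%.

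The same letters were counted within 100 bp of the peak centres. In the common peaks GGGCGG was present in 14 of 37 (37.8%, 22.5 to 55.2%), against 57.0% of the 3090 common peaks of other genes, and CCGGAAG in 11 (29.7%, 15.9 to 47.0%), against 16.6%. In the NR2E3-depleted-specific peaks GGGCGG was present in 7 of 15 (46.7%, 21.3 to 73.4%), against 58.5%, and CCGGAAG in 6 (40.0%, 16.3 to 67.7%), against 14.6%. CCAAT was present in 13 of 37 common (35.1%) and 2 of 15 NR2E3-depleted-specific peaks (13.3%, 1.66 to 40.5%), against 42.9% and 33.2% of other genes. Of the printed promoters, RPL11 carries CCGGAAG just before its start and RPL28, RPL13A, RPL27, RPS3 and RPS15 carry GGGCGG on one strand or the other, while RPS15, RPS16 and RPL10 carry TGCGCA.

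Other gene groups of similar function were read in the same way. Mitochondrial ribosomal protein genes, which build a separate ribosome, had a promoter peak in 49 of 78 (62.8%, 51.1 to 73.5%), of which 29 common, 6 control-specific and 17 NR2E3-depleted-specific. Genes of the proteasome, the protease of the cytosol and nucleus, had one in 28 of 39 (71.8%, 55.1 to 85.0%), of which 16, 2 and 11. The NR2E3-depleted-specific shares were 21.8% (13.2 to 32.6%) for the mitochondrial genes and 28.2% (15.0 to 44.9%) for the proteasome, against 18.3% for the cytoplasmic ribosomal proteins. Other translation genes with TOP transcripts had one in 11 of 17 (64.7%, 38.3 to 85.8%), with EEF1B2 the highest at 11.4 and PABPC1 in the NR2E3-depleted-specific list alone at 7.60. Ribosome assembly genes had one in 13 of 22 (59.1%, 36.4 to 79.3%), with the anti-association factor EIF6 at 10.6 in the common list and PES1 at 14.2 in the NR2E3-depleted-specific list. These intervals all include the 69.5% of the cytoplasmic ribosomal proteins, so no difference from these groups was detectable, and all lay above the 28.9% of all protein-coding genes. Among genes outside the naming rule, RPL22L1 had an NR2E3-depleted-specific peak at 7.60, and FAU, RPL36AL and RPL26L1 had none to their name. By position RPL36AL also had an NR2E3-depleted-specific peak, and FAU and RPL26L1 had none.

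Beyond the promoters, 51 peaks were named for 20 ribosomal protein genes, 27 of them intergenic and 19 intronic. By list they were 13 common, 11 control-specific and 27 NR2E3-depleted-specific. The 35182 other protein-coding peaks outside promoters were split as 7864, 10957 and 16361, so the NR2E3-depleted-specific list was the largest part in both. The peak-dense chromosomes held 38 of the 51 (74.5%), against 74.1% of the other protein-coding peaks outside promoters. RPL37A had 8 such peaks, RPL31 had 7, and RPL38 and RPS15A had 5 each. The highest score of any row of the group was an intronic common peak of 13.0 and 32 tags named for RPS10, at chr6:34415195-34415495 and 10724 bp from its TSS. An intergenic NR2E3-depleted-specific peak of 10.6 named for RPLP1 lay 10004 bp from its TSS. RPS3, whose promoter peak was control-specific, also had an intergenic NR2E3-depleted-specific peak of 8.62 and 17 tags, 10589 bp upstream. Processed copies of ribosomal protein genes, annotated as pseudogenes, were named in 24 further peaks, of which 2 were promoter peaks.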

How the data were processed

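FAIRE-seq was analysed in HepG2 cells with scrambled or NR2E3 shRNA, with 1 library per group. Per the labels and the study's methods, reads were trimmed with Trimmomatic 0.39, mapped to hg38 with Bowtie2 2.4.5 (with SAMtools 1.14 and bcl2fastq 2.17 in the submitters' processing notes), and peaks were called and annotated to the nearest TSS with HOMER. The deposited values are the peak score, which the authors' software scales from tag numbers, and the distance to the TSS in bp. The scale of the score and the rule that separated common from specific peaks are not given in the sources used here, and library depth is unknown. Tags were the score divided by its step.

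Members were chosen by gene name, and the members, gene lists, motifs and peak-dense chromosomes were chosen with earlier results of these data known. Of 5800 names of promoter peaks, 99.3% were matched to GENCODE 44. Genes named were those with a specific promoter peak, those with no promoter peak, the 5 highest and 5 lowest common scores with ties, those with several promoter peaks, and examples of those with specific peaks outside promoters. Some genes that meet this rule entered the counts but are not reported by name here. PSMC3IP, which is not a subunit, was left out of the proteasome list. Shares have Clopper-Pearson and tags exact Poisson 95% intervals (Python 3.11.15, scipy 1.17.1), and no test was run. The step, motif search, naming rule and intervals were tested on made-up data with known answers, but the counting of genes by list was not. Alternatives were a score of at least 6, other windows, assignment by position, motif strand and window, and leaving out the peak-dense chromosomes. The chromosome lengths of the hg38 sequence reached the last peak on 25 of 25 chromosomes.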

Additional observations from a re-analysis of the deposited data

How the results depend on the processing

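No paired analysis was possible because neither group held more than 1 library, which also left no replicate to leave out. Of 90 alternative values for 27 results, 72 stayed within the counting interval or within 1.5 times the reported count and 18 moved. Assignment by position within 1000 bp raised the genes with a control-specific peak from 6 to 10, as did a window of 3000 bp, and lowered those with none to 15. The share with a peak in either library under assignment by position, an alternative chosen after seeing the data, was 81.7% for cytoplasmic and 75.6% for mitochondrial ribosomal proteins and 81.8% for ribosome assembly. Among genes nearest to any listed peak it was 95% for cytoplasmic and 84.5% for mitochondrial ribosomal proteins, and at a score of at least 6 it was 58.5% and 46.2%. Without the 6 peak-dense chromosomes 21 genes had a common peak, the median score of common promoter peaks was 6.51 for the group and for other genes alike, and 1 common, 1 control-specific and 11 NR2E3-depleted-specific peaks were counted outside promoters. On the gene strand alone the share of promoters was 32.3% for Sp1 (43.4% of all promoters) and 13.8% for NFY (21.0%). The longer YY1 letters were at 1.54% there (0.0389 to 8.28%, against 2.36%). Their share thus turned from above to below the level of all promoters, and the cause was not tested. Under either search the interval of the longer YY1 letters included that level, so no reversal was resolved. At common peak centres Sp1 was at 37.8%. Peaks of 12 to 30 tags limit the order of single genes.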
